A study of Homo sapiens with 6 samples.

Results

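The vesicle trafficking genes described here were 222 of 19866 protein-coding genes in the RefSeq annotation of GRCh38.p14. They were chosen by symbol alone, with no measured value in the rule: 74 RAB, 35 VPS, 30 SNX, 29 SEC, 17 TRAPPC, 16 STX and 5 ARF genes, 8 COG genes and the 8 subunit genes of the COPI coat. The rule itself was set with earlier results of these data known. The RAB, VPS, SNX, SEC, STX, ARF and COG symbols had to continue with a digit. A few genes therefore entered by name rather than by role, such as VPS72, a chromatin remodelling subunit, and RAB5IF, which is not a Rab GTPase.

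The study profiled HepG2 cells, an established human line from a hepatocellular carcinoma, by CUT&Tag, in which an antibody guides a transposase that cuts and tags nearby DNA. Antibodies against 3 targets were used, with 2 replicate libraries each: ENO1, H4K12la and HDAC1. ENO1 is the glycolytic enzyme enolase, H4K12la is histone H4 lactylated at the lysine in its name, and HDAC1 is a histone deacetylase, and the study's question was whether the enzyme pair bears on lactylation of histones and on transcription. All groups were the same unmodified line with no treatment named in the labels. Whether the replicates are separate cultures is not given in the labels, and their spread may be technical.

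Newly made secretory proteins enter the endoplasmic reticulum through the Sec61 channel, leave it in vesicles with a COPII coat, and return from the Golgi in vesicles with a COPI coat. Rab and ARF GTPases mark each compartment, tethers such as TRAPP, COG, HOPS and GARP capture arriving vesicles, and syntaxins fuse them. Retromer, sorting nexins and ESCRT complexes sort cargo at endosomes, and hepatocytes use the whole route heavily because they secrete most plasma proteins.

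A gene was scored as carrying a target when a peak of both replicates lay within 1 kb of either end of the gene. The 6 deposited peak lists held 1592 and 1189 peaks for ENO1 in replicates 1 and 2, 5459 and 7568 for H4K12la, and 5727 and 4567 for HDAC1, on the 24 chromosomes used. Read depth is unknown, so an absent peak means that none passed the peak caller, not that the target was absent. The fold given with each peak is the authors' enrichment value for that peak and is not set between targets. Within a target, folds of the 2 replicate lists are shown side by side and the lower one ranks a gene, although the lists differ in length. Among genes that mark hepatocytes, HNF4A carried H4K12la, and 7, ALB and APOB among them, had no gene-end peak in any library.

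H4K12la marked trafficking genes more often than protein-coding genes at large. It lay at 52 of the 222 trafficking genes, or 23.4% (Wilson 95% interval 18.3 to 29.4%), against 10.5% of all protein-coding genes. The ratio of these shares was 2.24, with an interval of 1.75 to 2.81 when the share of all genes is taken as fixed. HDAC1 lay at 25 trafficking genes, or 11.3% (7.75 to 16.1%), against 8.18% of all genes, and the interval of its ratio, 0.946 to 1.97 around 1.38, included an equal share. In single replicates the HDAC1 ratio was 1.58 (1.24 to 1.98) in replicate 1 and 1.43 (1.03 to 1.95) in replicate 2, and these intervals did not include it. ENO1 lay at 0 of the 222 trafficking genes, against 0.0654% of all genes. A count of 0 allows a share of up to 1.35%, so a share like that of all genes could not be detected in a set of this size. These intervals cover counting over genes only, and no test was made between the sets.

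The same order held in each library. H4K12la had gene-end peaks at 61 and 78 trafficking genes in replicates 1 and 2, which is 27.5% and 35.1%, against 13.5% and 19.5% of all genes. HDAC1 had them at 52 and 32 trafficking genes, which is 23.4% and 14.4%, against 14.8% and 10.1% of all genes. ENO1 had them at 0 trafficking genes in either replicate, against 0.166% and 0.101% of all genes. Among the trafficking genes, H4K12la was therefore seen at more genes than HDAC1 in each replicate, and by 2.08 to 1 when both replicates were required, against 1.28 to 1 over all genes. A total of 39 trafficking genes, or 17.6%, had peaks in some library but no target in both replicates, against 13.6% of all genes. Another 116, or 52.3%, had none in any library, against 70.9%. Any gene-end peak at all was found at 106 trafficking genes, or 47.7%, against 29.1% of all genes. Within those genes the H4K12la share was 49.1%, against 35.9%, and the HDAC1 share was 23.6%, against 28.1%. The H4K12la and HDAC1 libraries themselves helped to choose those genes, so these shares depend in part on that choice.

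**Figure D1:**
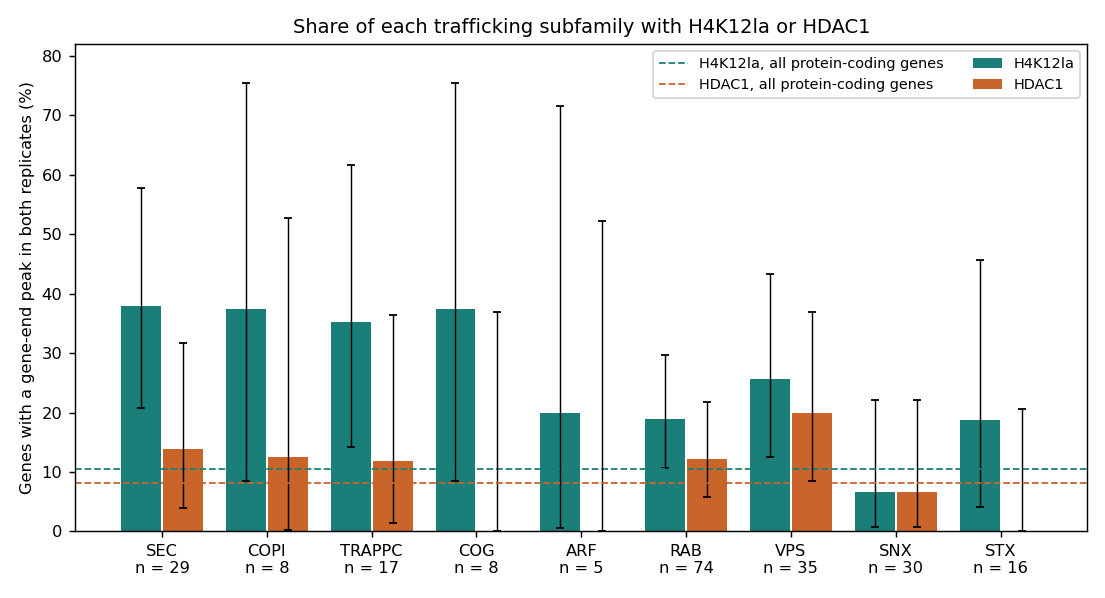
Share of genes (%) with a gene-end peak in both replicates in each of the 9 subfamilies, for H4K12la and HDAC1, with exact 95% binomial intervals. Dashed lines give the share over all protein-coding genes, 10.5% for H4K12la and 8.18% for HDAC1; the H4K12la intervals of the SEC, TRAPPC and VPS genes lie above that line, and that of the RAB genes begins at 10.7%, just above it.

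Both coats of the early secretory route stood among the marked genes, and promoter windows of some of their genes are printed here. They were picked by hand from the coat genes with H4K12la, and those of SEC23A, SEC24A and COPA are not shown. The sequences are RefSeq promoter windows of GRCh38.p14, each running from 250 bases before to 50 bases after the annotated start, read 5′ to 3′ on the strand of the gene. Capitals mark 4 short motifs on either strand: the GC box GGGCGG, the CCAAT box CCAAT, the ETS core CGGAAG and the Golgi stress element ACGTGGC. SEC23B, at chr20:18507298-18507597 on the plus strand, had the highest H4K12la fold of the set by the lower of its 2 replicates. SEC31A lies at chr4:82900520-82900819 on the minus strand and SEC24C at chr10:73744122-73744421 on the plus strand. The COPI genes COPG1 and COPB2 lie at chr3:129249356-129249655 on the plus strand and at chr3:139389631-139389930 on the minus strand.
SEC23B: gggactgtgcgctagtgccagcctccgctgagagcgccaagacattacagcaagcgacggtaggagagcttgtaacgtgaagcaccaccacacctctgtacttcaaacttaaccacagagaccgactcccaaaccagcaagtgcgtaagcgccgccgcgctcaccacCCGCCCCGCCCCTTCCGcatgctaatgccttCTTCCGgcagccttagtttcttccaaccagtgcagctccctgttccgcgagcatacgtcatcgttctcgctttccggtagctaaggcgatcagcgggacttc
SEC31A: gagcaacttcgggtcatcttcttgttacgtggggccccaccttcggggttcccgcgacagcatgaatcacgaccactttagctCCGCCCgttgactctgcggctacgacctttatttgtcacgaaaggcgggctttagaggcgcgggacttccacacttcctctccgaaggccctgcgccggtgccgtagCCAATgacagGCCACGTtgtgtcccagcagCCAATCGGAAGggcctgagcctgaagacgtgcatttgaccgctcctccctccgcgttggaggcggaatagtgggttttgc
SEC24C: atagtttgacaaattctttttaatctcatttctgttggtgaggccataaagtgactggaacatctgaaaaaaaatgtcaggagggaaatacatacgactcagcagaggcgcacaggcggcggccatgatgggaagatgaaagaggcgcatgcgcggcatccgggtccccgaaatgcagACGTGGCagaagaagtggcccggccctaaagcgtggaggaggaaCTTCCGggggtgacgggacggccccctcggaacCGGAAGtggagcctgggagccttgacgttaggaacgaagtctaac
COPG1: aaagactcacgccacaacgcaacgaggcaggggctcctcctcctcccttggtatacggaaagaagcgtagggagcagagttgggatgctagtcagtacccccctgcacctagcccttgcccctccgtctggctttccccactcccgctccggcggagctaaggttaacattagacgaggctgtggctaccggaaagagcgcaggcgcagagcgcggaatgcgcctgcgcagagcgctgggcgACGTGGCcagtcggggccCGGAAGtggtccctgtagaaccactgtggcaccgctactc
COPB2: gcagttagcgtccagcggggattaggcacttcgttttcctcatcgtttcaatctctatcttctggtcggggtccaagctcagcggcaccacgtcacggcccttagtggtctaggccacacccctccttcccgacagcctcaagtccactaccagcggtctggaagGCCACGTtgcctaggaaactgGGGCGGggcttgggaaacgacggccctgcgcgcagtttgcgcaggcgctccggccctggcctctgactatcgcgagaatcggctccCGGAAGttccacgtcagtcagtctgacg

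The SEC23B window holds 2 GC boxes side by side and 2 ETS cores, and the H4K12la peaks covered 183 and 286 of its 300 bases in replicates 1 and 2. In the SEC24C and COPB2 windows all 300 bases lay inside the H4K12la peaks of both replicates. SEC24C, COPG1, COPB2 and SEC31A each hold 1 Golgi stress element, a motif that TFE3 is known to bind when the Golgi is overloaded. In the SEC24C, COPB2 and SEC31A windows an ETS core lies nearer to the start than the element. In COPG1 the element lies nearer, just before the start, and the ETS core lies just after the start.

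A second set of promoters is shown for genes with HDAC1, of which VPS35 and RAB2B also carry H4K12la. VPS35, the core retromer subunit, lies at chr16:46689129-46689428 on the minus strand. RAB2B, a Golgi Rab GTPase, lies at chr14:21476910-21477209 on the minus strand, and TRAPPC6A, a small TRAPP subunit with HDAC1 alone, at chr19:45178188-45178487 on the minus strand.
VPS35: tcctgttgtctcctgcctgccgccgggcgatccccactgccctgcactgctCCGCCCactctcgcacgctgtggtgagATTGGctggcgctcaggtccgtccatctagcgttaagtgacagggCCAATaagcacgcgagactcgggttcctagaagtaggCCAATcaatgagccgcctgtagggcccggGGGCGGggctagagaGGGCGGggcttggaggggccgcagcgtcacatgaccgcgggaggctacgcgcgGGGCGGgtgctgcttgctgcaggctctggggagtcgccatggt
RAB2B: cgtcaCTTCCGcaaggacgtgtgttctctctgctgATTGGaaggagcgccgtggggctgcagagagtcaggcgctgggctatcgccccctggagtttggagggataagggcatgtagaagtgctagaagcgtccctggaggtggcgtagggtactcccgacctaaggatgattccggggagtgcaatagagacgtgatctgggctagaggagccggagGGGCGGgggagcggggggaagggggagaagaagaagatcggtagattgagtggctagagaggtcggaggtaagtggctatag
TRAPPC6A: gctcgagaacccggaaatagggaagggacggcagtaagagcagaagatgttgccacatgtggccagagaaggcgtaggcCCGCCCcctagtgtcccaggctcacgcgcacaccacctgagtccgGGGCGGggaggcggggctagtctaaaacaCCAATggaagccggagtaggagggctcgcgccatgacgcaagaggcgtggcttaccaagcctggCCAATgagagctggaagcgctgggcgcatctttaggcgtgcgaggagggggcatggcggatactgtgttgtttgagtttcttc

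All 300 bases of the VPS35 window lay inside the peaks of both H4K12la and both HDAC1 libraries. The window holds 4 GC boxes and 3 CCAAT boxes, and no ETS core. The TRAPPC6A window holds 2 GC boxes and 2 CCAAT boxes, and 214 of its bases lay inside the HDAC1 peak in each replicate.

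The SEC genes, which include the COPII coat and the translocon, had the highest H4K12la share of the 9 subfamilies, with an interval that overlaps all the others. H4K12la lay at 11 of 29 SEC genes, or 37.9% (exact 95% interval 20.7 to 57.7%), and HDAC1 at 4, or 13.8%. Within the COPII coat H4K12la lay at 6 of 11 subunit genes: SEC23A and SEC23B of the inner layer, the cargo-binding SEC24A, SEC24C and SEC24D, and SEC31A of the outer cage. SEC16A had H4K12la in replicate 1 alone and SEC13 in replicate 2 alone, while SEC16B, SEC24B and SEC31B had no peak of any target.

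SEC23B, a GTPase-activating subunit of the inner coat, had H4K12la peaks of 6.94-fold in replicate 1 and 6.45-fold in replicate 2. By the lower of its 2 values it ranked 9 among the 2077 genes with H4K12la. HDAC1 lay inside the same stretch, at 5.99-fold and 5.47-fold. SEC31A had H4K12la peaks of 4.82-fold and 3.98-fold and HDAC1 peaks of 7.61-fold and 4.84-fold. SEC23B and SEC31A were the COPII genes with both targets. The other 4 COPII genes had H4K12la alone, with folds between 3.25 in SEC24A replicate 1 and 4.34 in SEC23A replicate 2.

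In the translocon, H4K12la lay at the genes of the small channel subunits SEC61B (4.71-fold and 4.27-fold) and SEC61G (5.40-fold and 4.10-fold). It also lay at SEC62, whose protein helps short substrates into the channel, at 4.95-fold and 6.24-fold. SEC61A1, which encodes the channel pore itself, and SEC63 had no gene-end peak of any target. HDAC1 had peaks at SEC61B, SEC61G and SEC61A2 in replicate 1 but at no translocon gene in replicate 2. SEC11A, a catalytic subunit of signal peptidase, carried H4K12la at 3.72-fold and 4.47-fold. SEC22C, a relative of the yeast ER-to-Golgi SNARE Sec22, carried H4K12la at 4.07-fold and 4.47-fold. Its HDAC1 peaks, 7.02-fold and 7.99-fold, had the highest lower value of any trafficking gene and ranked 64 among 1626 genes with HDAC1. The SEC22C peaks of both targets also lay within 1 kb of NKTR. SEC14L5, of a lipid-transfer family, had HDAC1 alone, at 5.61-fold and 4.14-fold.

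The COPI coat showed 3 of its 8 subunit genes with H4K12la. COPA, the alpha subunit, had peaks of 3.74-fold and 4.14-fold, COPB2 of 4.27-fold and 3.95-fold, and COPG1 of 3.84-fold and 4.00-fold. These values lie close together and near the median of all genes with H4K12la, 3.84. COPB1 had H4K12la in replicate 2 alone, and COPE, COPG2 and COPZ1 had no peak. COPZ2, which encodes the less widely used zeta subunit, was the COPI gene with HDAC1, at 5.44-fold and 2.998-fold. That peak sits at the upstream edge of the gene record, at -10751 and -10962 bases from the start in the promoter table, and also lies within 1 kb of NFE2L1. Over both coats, H4K12la lay at 9 of 19 subunit genes, or 47.4% (24.4 to 71.1%), against 43 of the other 203 trafficking genes, or 21.2% (15.8 to 27.5%). The 2 intervals overlap, and the coats were joined with the values of their genes known. ARF1, the GTPase that recruits COPI, was the only ARF gene with H4K12la in both replicates, at 3.34-fold and 3.72-fold, and with windows of 500 bases it was not counted.

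**Figure D2:**
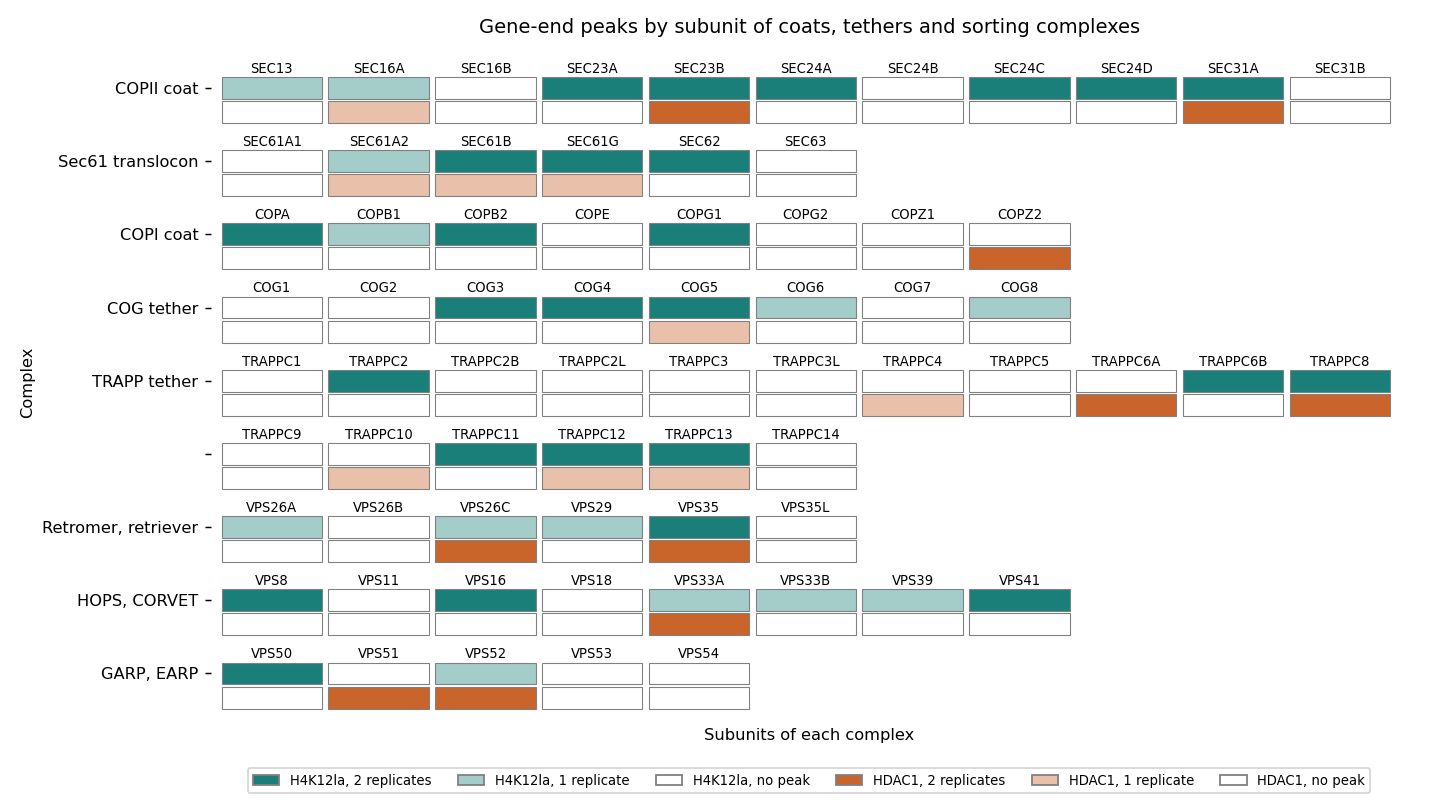
Gene-end peaks by subunit for the COPII and COPI coats, the Sec61 translocon, the COG and TRAPP tethers, retromer and retriever, HOPS and CORVET, and GARP and EARP. The upper box of each gene is H4K12la and the lower HDAC1; dark boxes have peaks in 2 replicates, pale boxes in 1 and white boxes in none. H4K12la fills 6 of 11 COPII and 3 of 8 COPI boxes in both replicates, and HDAC1 fills 2 and 1.

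Among the tethers, H4K12la lay at 6 of 17 TRAPPC genes, or 35.3% (14.2 to 61.7%), and HDAC1 at 2. The 4 genes whose subunits set TRAPPIII apart all carried H4K12la: TRAPPC8 at 4.39-fold and 4.11-fold, TRAPPC11 at 4.24-fold and 4.44-fold, TRAPPC12 at 3.62-fold and 3.83-fold, and TRAPPC13 at 3.80-fold and 4.07-fold. None of the 3 genes particular to the TRAPPII complex, TRAPPC9, TRAPPC10 and TRAPPC14, had an H4K12la gene-end peak in any library. This split of the TRAPP genes was made after their values were seen, and with so few genes the exact intervals of 4 of 4 and 0 of 3 overlap (39.8 to 100% and 0 to 70.8%). With windows of 500 bases H4K12la lay at 5 TRAPPC genes. TRAPPC13, whose summits lay at -708 and -616 bases from its start, was then not counted. Its peaks also lay within 1 kb of TRIM23 and SHLD3, and those of TRAPPC11 within 1 kb of RWDD4. TRAPPC2, the sedlin gene, and TRAPPC6B, a core subunit, completed the H4K12la set with 4.04-fold and 4.46-fold for TRAPPC2 and 3.44-fold and 3.49-fold for TRAPPC6B. TRAPPC6A had HDAC1 alone at 5.84-fold and 5.67-fold, while TRAPPC8 had HDAC1 beside H4K12la at 4.76-fold and 6.85-fold.

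The COG complex, which tethers vesicles within the Golgi, had H4K12la at 3 of its 8 genes. COG5 had 4.85-fold and 4.80-fold, COG4 4.13-fold and 4.68-fold, and COG3 3.79-fold and 3.90-fold. COG6 and COG8 each had H4K12la in 1 replicate, COG1, COG2 and COG7 had no peak, and HDAC1 lay at 0 COG genes in both replicates, with a single peak at COG5 in replicate 2.

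The RAB genes, the largest subfamily, carried H4K12la at 14 of 74, or 18.9% (10.7 to 29.7%), and HDAC1 at 9, or 12.2% (5.71 to 21.8%). The order of the targets in the RAB genes was not stable. In replicate 1 alone H4K12la lay at 14 and HDAC1 at 18, and in replicate 2 alone at 18 and 13. With a -log10 q of 5 or more the counts were 7 and 9, and with the 4567 strongest peaks of each list, a setting added after the data were seen, they were 9 and 9. Of 64 Rab GTPases, 11 had H4K12la and 9 had HDAC1, and 3 genes had both. H4K12la without HDAC1 in both replicates lay at RAB5A of early endosomes (3.74-fold and 5.16-fold), RAB6A of the Golgi (3.75-fold and 4.56-fold) and RAB18 of lipid droplets and the ER (3.91-fold and 4.44-fold). So it did at RAB28, the highest Rab GTPase gene for this mark at 5.03-fold and 6.37-fold, and at RAB14, RAB27A, RAB30 and RAB32. Of these, RAB6A and RAB18 had an HDAC1 peak in replicate 1, and RAB14, RAB28 and RAB30 in replicate 2. HDAC1 without H4K12la in both replicates lay at RAB4B and RAB11B of recycling endosomes (4.70-fold and 4.30-fold, and 4.74-fold and 4.36-fold), RAB5B (7.23-fold and 6.28-fold), RAB17 of epithelial cells (5.32-fold and 4.16-fold), RAB40C and RAB43. The closely related RAB5 genes thus stood apart in these lists. RAB5A had H4K12la in both replicates and no HDAC1, RAB5B had HDAC1 in both and H4K12la in replicate 2 alone, and RAB5C had no peak. The RAB5A H4K12la peaks also lay within 1 kb of EFHB, and the RAB5B HDAC1 peaks within 1 kb of CDK2. The strongest RAB5B H4K12la peak lay at the far end of the gene, also within 1 kb of SUOX. These peaks therefore cannot be assigned to the RAB5 genes alone. Among 9 Rab effectors and regulators with RAB symbols, H4K12la lay at RAB3GAP2 (5.22-fold and 4.25-fold), part of a Rab GTPase-activating complex, and RAB11FIP2 (4.10-fold and 5.21-fold), a Rab11 effector. RAB7A of late endosomes had no gene-end peak of any target.

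At the endosomal genes both targets were present. H4K12la lay at 9 of 35 VPS genes, or 25.7% (12.5 to 43.3%), and HDAC1 at 7, or 20.0% (8.44 to 36.9%). With a -log10 q of 5 or more these counts were 5 and 6. The HOPS and CORVET tethers, which act in fusion at late and early endosomes, had H4K12la at 3 of 8 genes: VPS41 (4.96-fold and 5.69-fold), VPS8 (4.30-fold and 6.24-fold) and VPS16 (4.09-fold and 4.04-fold). Another 3, VPS33A, VPS33B and VPS39, had it in replicate 2 alone, and HDAC1 lay at VPS33A (4.11-fold and 4.49-fold). Of the GARP and EARP genes, VPS50, particular to EARP, had H4K12la at 4.17-fold and 5.52-fold, and VPS51, shared by both complexes, had HDAC1 at 7.58-fold and 6.37-fold. VPS52, also shared, counts as an HDAC1 gene by the rule, but its peaks lie at opposite gene ends in the 2 replicates, at 3.90-fold and 3.15-fold, and do not overlap.

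In retromer and retriever, VPS35 had both targets, with H4K12la at 3.91-fold and 4.58-fold and HDAC1 at 8.16-fold and 5.98-fold. VPS26C, a retriever subunit, had HDAC1 in both replicates at 7.02-fold and 6.22-fold and H4K12la in replicate 1 alone. VPS4B, an ATPase that disassembles ESCRT, was the only gene of 9 in its group with a target in both replicates, and it had both. The lipid-transfer genes VPS13A (4.39-fold and 3.67-fold) and VPS13B (4.48-fold and 4.39-fold) carried H4K12la, and VPS13A also HDAC1 at 6.06-fold and 6.13-fold. VPS45, which encodes a partner of syntaxins, had H4K12la at 4.32-fold and 6.83-fold. These 2 values show how far replicates of 1 gene can differ, a ratio of 1.58, the widest among trafficking genes with H4K12la.

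Sorting nexin genes carried H4K12la and HDAC1 at shares below those of all genes, with intervals that include the shares of all genes. H4K12la lay at 2 of 30 SNX genes, or 6.67% (0.818 to 22.1%), against 10.5% of all genes. They were SNX13 (4.03-fold and 5.09-fold) and SNX14 (3.63-fold and 4.76-fold), related proteins with a regulator of G protein signalling domain. HDAC1 lay at another pair, also 6.67% (0.818 to 22.1%), against 8.18% of all genes. These were SNX5 (4.93-fold and 4.69-fold) and SNX17 (4.45-fold and 4.02-fold). The SNX share of H4K12la was the lowest of the 9 subfamilies, and its interval overlaps that of every other. A further 9 SNX genes had H4K12la in 1 replicate. In all, 17 of the 30 had no peak in any library, where 70.9% of all genes had none. H4K12la lay at 3 of 16 STX genes and HDAC1 at 0, with HDAC1 peaks at STX5, STX7 and STX12 in replicate 1 alone. STX17, the syntaxin that fuses autophagosomes with lysosomes, had H4K12la at 6.60-fold and 6.04-fold, ranking 28 among all genes with the mark, and STX12 (3.65-fold and 3.64-fold) and STX16 (3.27-fold and 3.59-fold) lay lower.

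**Figure D3:**
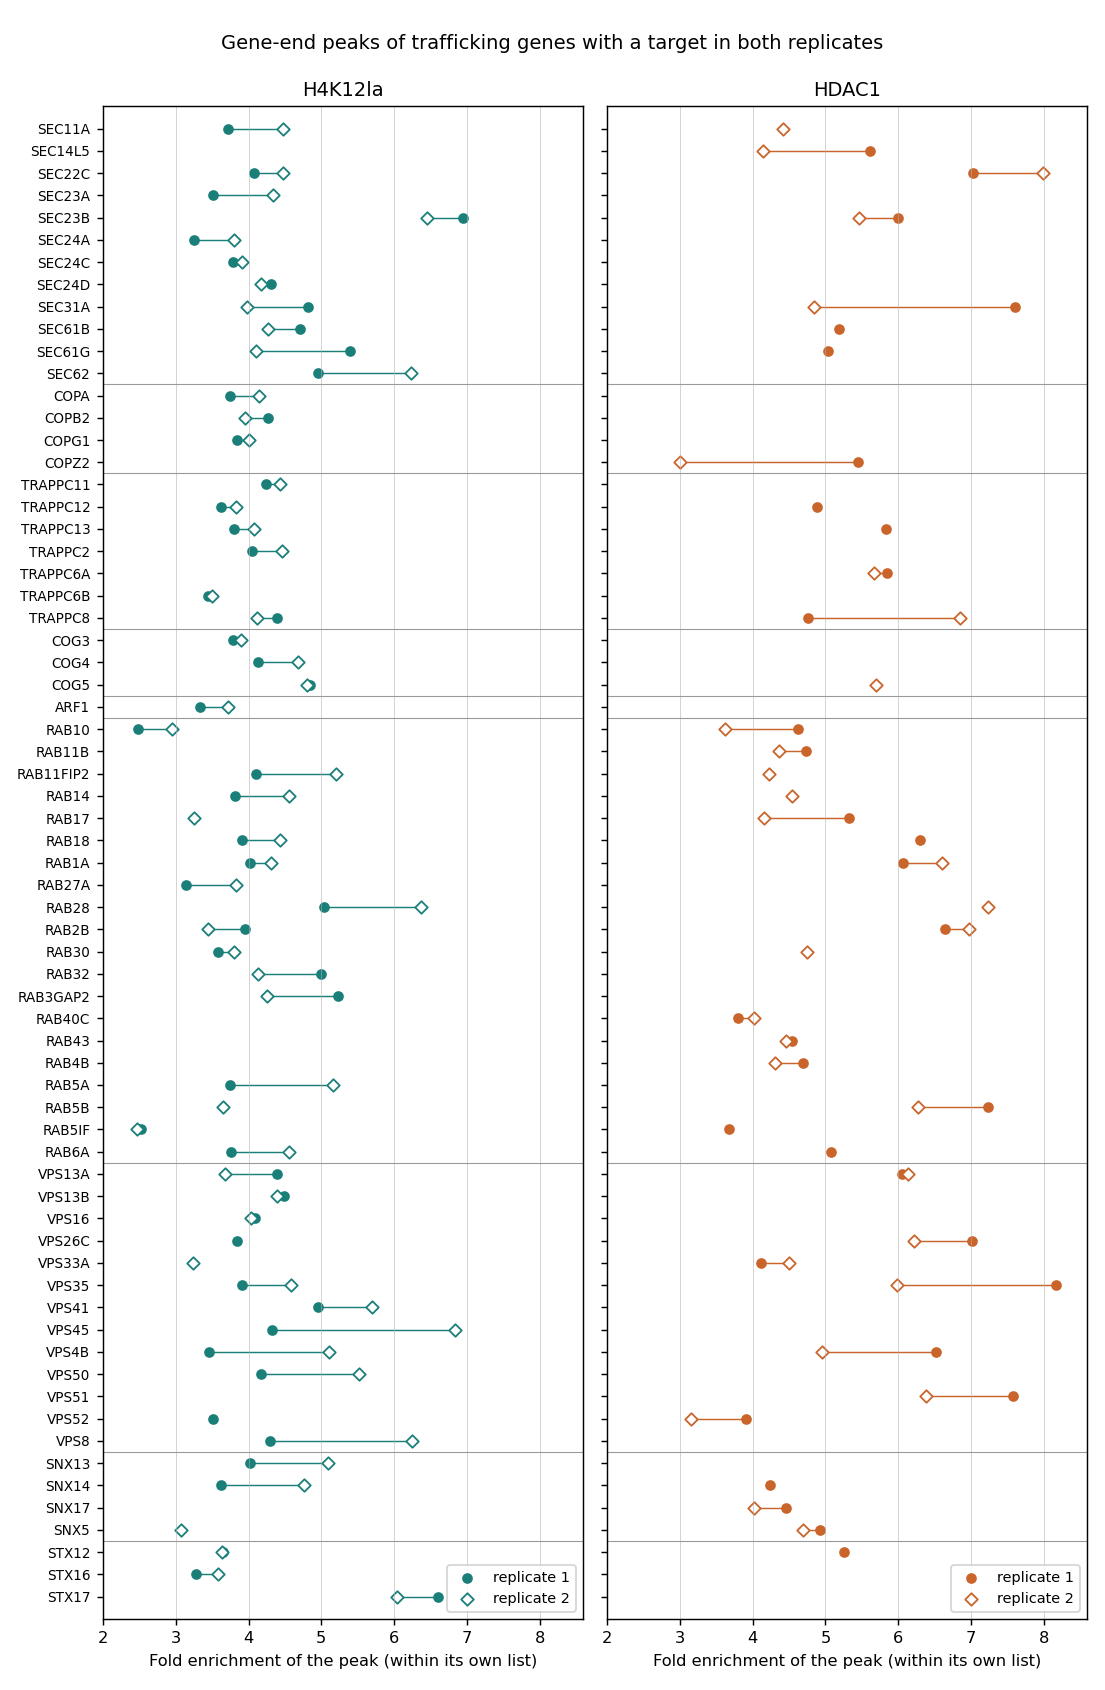
Fold enrichment of the gene-end peak in replicate 1 (filled circle) and replicate 2 (open diamond) for each of the 67 trafficking genes with H4K12la or HDAC1 in both replicates, ordered by subfamily; a line joins replicates, and a lone symbol is a peak in 1 replicate. By the lower of the 2 replicates, SEC23B and STX17 stand highest for H4K12la and SEC22C and RAB2B for HDAC1; folds are not comparable between the panels.

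Where they were called, the peaks of trafficking genes were of ordinary height. The median of the lower fold was 3.93 for the 52 trafficking genes with H4K12la, against 3.84 for all 2077 genes, and 4.76 for the 25 with HDAC1, against 4.63 for all 1626. The order of genes by fold was kept only in part between replicates. Spearman's rho between replicates was 0.519 over the 52 H4K12la genes and 0.698 over the 25 HDAC1 genes, against 0.583 and 0.690 over all genes, as descriptions across genes that are not independent.

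Both targets lay at 10 trafficking genes, or 4.50%, against 3.18% of all genes: RAB1A, RAB2B, RAB10, SEC22C, SEC23B, SEC31A, TRAPPC8, VPS4B, VPS13A and VPS35. RAB1A, the GTPase of ER-to-Golgi transport, had H4K12la at 4.02-fold and 4.31-fold and HDAC1 at 6.07-fold and 6.61-fold. RAB2B had H4K12la at 3.95-fold and 3.44-fold and HDAC1 at 6.65-fold and 6.97-fold, and RAB10, of secretory and recycling traffic, H4K12la at 2.48-fold and 2.94-fold and HDAC1 at 4.62-fold and 3.62-fold. At VPS4B the H4K12la peaks had 3.46-fold and 5.11-fold enrichment, and the HDAC1 peaks 6.52-fold and 4.96-fold. In all 10 genes and both replicates the H4K12la and HDAC1 peaks shared bases, 20 of 20 pairs. The rule already places both peaks within 1 kb of an end of the same gene. No such count was made over all 631 genes with both targets, so this is not a trait particular to trafficking genes. Of the trafficking genes with H4K12la, 19.2% also had HDAC1, against 30.4% of all genes with H4K12la. Of those with HDAC1, 40.0% also had H4K12la, against 38.8% of all genes with HDAC1.

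The peaks lay at gene starts. The strand was known for 47 of the 52 genes with H4K12la, and in both replicates all 47 summits lay within 2 kb of the annotated start, against 93.2% and 93.4% of all genes with H4K12la. The median summit was 88 and 40 bases downstream of the start in replicates 1 and 2, against 72 and 54 bases over all genes. For HDAC1, 19 and 20 of 21 genes with a known strand had the summit within 2 kb of the start, with medians of -95 and -99.5 bases, that is upstream, against -146 and -140 over all genes. COPZ2 is the exception in both replicates and VPS52 in replicate 1. In the genes with both targets the order of the summits was mixed: of 16 pairs with positions, H4K12la lay further downstream in 10, further upstream in 5 and at the same base in 1. VPS13A, RAB2B, VPS4B and SEC23B had H4K12la downstream in both replicates, by 4 to 511 bases, while VPS35 and RAB10 had it upstream in both.

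**Figure D4:**
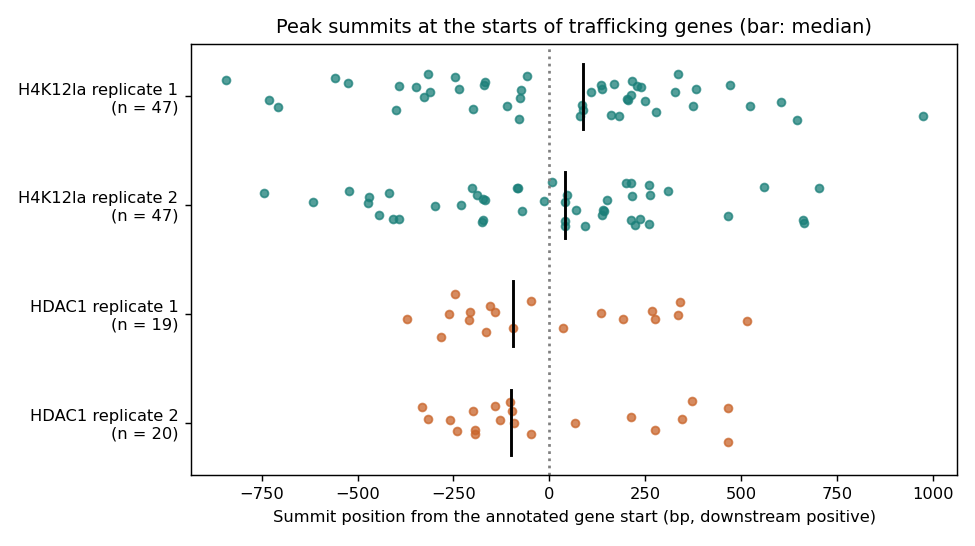
Distance in bases from the annotated gene start to the peak summit, downstream positive, for trafficking genes with the target in both replicates and a known strand, by library; bars are medians. H4K12la summits have medians of 88 and 40 bases and HDAC1 summits of -95 and -99.5, with wide overlap; COPZ2 in both replicates and VPS52 in replicate 1 lie outside 2 kb and are not drawn.

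Some of these promoters are shared with a neighbour, about as often as at other genes with the same target. The peak also lay within 1 kb of another protein-coding gene at 16 of the 52 genes with H4K12la, or 30.8% in each replicate, against 36.4% and 36.6% of all genes with H4K12la. For HDAC1 it did so at 10 and 11 of the 25 genes in replicates 1 and 2, or 40.0% and 44.0%, against 44.5% of all genes with HDAC1 in each replicate. Examples are VPS35 with ORC6, RAB2B with TOX4, SEC31A with THAP9, RAB5B with CDK2 and TRAPPC6A with BLOC1S3. For such pairs the lists do not tell which gene a peak belongs to. Genes with H4K12la were also longer, with a median of 53.5 kb, against 30.0 kb for the 116 trafficking genes with no peak. Over all protein-coding genes the medians were 42.1 kb with H4K12la and 24.5 kb in total, and the part of length in the higher H4K12la share was not tested.

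RefSeq promoter windows were found for 182 of the 222 trafficking genes and 15842 of all genes, and 10 short motifs were counted in them on both strands. Matches are descriptions of the letters, not binding sites. The ETS core CGGAAG was in 29 of 47 windows of trafficking genes with H4K12la, or 61.7%, against 31.5% of 89 windows of trafficking genes with no peak, 39.7% of all genes with H4K12la and 25.6% of all windows. It was not particular to H4K12la. Among trafficking genes with HDAC1 it was in 11 of 21 windows, or 52.4%, against 35.8% of all genes with HDAC1. Over all 182 trafficking windows the share was 44.0%. The CCAAT box was in 52.4% of 21 windows with HDAC1 and in 31.9% of those with H4K12la, against 49.3% of all genes with HDAC1, 37.5% of all genes with H4K12la and 36.4% of all windows. GC boxes were about as frequent in trafficking windows with H4K12la (74.5%) as in those with no peak (76.4%), against 58.5% of all windows, and GC content was likewise similar, at medians of 65.7% and 67.0%. TATAAA was in 0 of the 47 trafficking windows with H4K12la and 0 of the 21 with HDAC1, against 5.62% of trafficking windows with no peak, 4.53% of all genes with H4K12la, 4.89% of all genes with HDAC1 and 9.63% of all windows. Over all windows the remaining motifs were rarer than TATAAA. The E-box CACGTG was in 12.8% of trafficking windows with H4K12la, against 12.4% of those with no peak, 11.8% of all genes with H4K12la and 8.88% of all windows. The cAMP response element TGACGTCA was in 4.26%, against 5.62% of those with no peak and 2.59% of all windows. The longer NRF1 core was in 4.26%, against 1.75% of all windows, and the ER stress response element and a palindromic promoter motif, also among the 10, were in 0 of these windows, against 0.120% and 0.669% of all windows.

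The Golgi stress element ACGTGGC was in 10 of 47 windows with H4K12la, or 21.3%, against 8.99% of trafficking windows with no peak, 7.81% of all genes with H4K12la and 3.81% of all windows. It was concentrated in the coats, a split made after the values were seen: 10 of 18 coat windows held it, or 55.6%, against 14 of 164 other trafficking windows, or 8.54%. Among coat genes with H4K12la it was in 6 of 8 windows (COPB2, COPG1, SEC23A, SEC24A, SEC24C and SEC31A), and the ETS core was in all 8. Coat genes without H4K12la in both replicates held the Golgi stress element in 4 of 10 windows (COPZ2, SEC13, SEC16A and SEC16B) and the ETS core in 5. Other trafficking genes with H4K12la held the ETS core in 21 of 39 windows. The element shares the letters ACGTG with the E-box CACGTG, and 8 of the 24 trafficking windows that hold it also hold an E-box.

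**Figure D5:**
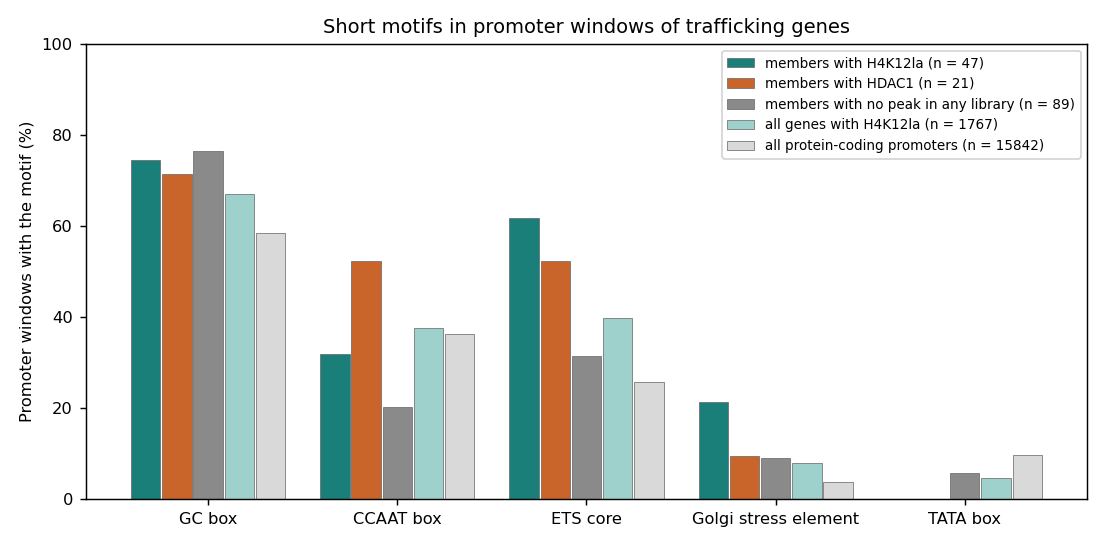
Share of promoter windows (%) holding each of 5 short motifs on either strand, in trafficking genes with H4K12la, with HDAC1 and with no peak, in all genes with H4K12la, and in all protein-coding genes. The ETS core was in 61.7% of trafficking windows with H4K12la, 52.4% of those with HDAC1 and 25.6% of all windows. For the Golgi stress element these shares were 21.3%, 9.52% and 3.81%.

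Genes that act in the same traffic under other symbols gave similar shares, on lists also chosen with earlier results of these data known. Over 218 genes on 8 lists, H4K12la lay at 56, or 25.7% (exact 95% interval 20.0 to 32.0%), against 10.5% of all genes. HDAC1 lay at 28, or 12.8% (8.71 to 18.0%), against 8.18%. Both lay at 12, or 5.50% (2.88 to 9.42%), against 3.18%, and ENO1 at 0, against 0.0654%. Rab regulators had H4K12la at 10 of 25 and HDAC1 at 6, and other ESCRT subunits at 8 and 3 of 22. The small list of SAR1 and COPII accessory genes had H4K12la at 3 of 7 and HDAC1 at 1. Golgins and cargo receptors had 8 and 5 of 38, other SNAREs 8 and 4 of 33, ARF regulators and relatives 9 and 4 of 42, clathrin and adaptors 7 and 5 of 39, and exocyst and NRZ tethers 3 and 0 of 12. On every list but the Rab regulators (9.36 to 45.1%) the exact HDAC1 interval included the share of all genes. For H4K12la the interval lay above that share for Rab regulators, other ESCRT subunits and other SNAREs, and included it on the remaining lists. With both replicates required, H4K12la lay at more genes than HDAC1 on each of the 8 lists. In replicate 1 alone it did not on 4 of them: H4K12la and HDAC1 lay at 12 and 12 golgin and cargo receptor genes, 8 and 11 clathrin and adaptor genes, 8 and 9 other ESCRT genes and 8 and 9 other SNARE genes.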

How the data were processed

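Peaks of ENO1, H4K12la and HDAC1 CUT&Tag libraries of HepG2 cells were used as the authors deposited them, 2 lists per target. The submitters' processing notes name FastQC, Bowtie2, MACS2, deepTools and hg38; no source used here gives a control library or read depth, so depth and its precision are unknown. The deposited lists give each peak a fold enrichment, an integer score, and -log10 p and q values by the authors' caller; the lowest -log10 q was just above 2 in every list, and peaks were called per library. The score and p columns were not used further.

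Genes were RefSeq GRCh38.p14 protein-coding records on chromosomes 1 to 22, X and Y. Starts were converted to 1-based, and a gene carried a target when peaks of both replicates overlapped 1 kb windows around either gene end. Where several peaks qualified, the one with the highest fold was used. Genes named with values were those with both targets, the 10 per target with the highest lower fold, and up to 3 per subfamily and target; others are named to account for a complex. Strand and promoter sequence came from the RefSeq table of 300-base windows. Members, lists and this rule were chosen with earlier results of these data known. Alternatives were other windows, a q threshold, either replicate, each replicate left out, summits only, starts only, overlapping replicate peaks and equal list lengths. The counting script was tested first on made-up windows with known answers. Python 3.11.15, pandas 2.3.3, NumPy 2.4.6, SciPy 1.17.1 and Matplotlib 3.10.9 were used.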

Additional observations from a re-analysis of the deposited data

How the results depend on the processing

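The H4K12la count of 52 trafficking genes was 32 at a -log10 q of 5 or more and 87 with a peak in either replicate, and ranged from 61 to 78 with 1 replicate left out. The HDAC1 count of 25 was 59 with either replicate and 32 to 52 with 1 left out. The count with both targets, 10, was 40 with either replicate and 20 to 24 with 1 left out. With either replicate the H4K12la ratio to all genes was 1.74, and with 1 replicate left out it was 1.80 to 2.04 for H4K12la and 1.43 to 1.58 for HDAC1. The median fold was 3.95 to 4.19 for H4K12la and 4.79 to 5.06 for HDAC1 with 1 left out. A stricter threshold, or a change in how many libraries must hold a peak, shifts counts by construction. The ENO1 count was 0 under every alternative in which it was recounted, which leaves out equal numbers of peaks. Both ratios were above 1 under every alternative that recomputed them, which leaves out the merging of genes that share a peak region. Equal numbers of peaks, the 4567 strongest of each list, added after seeing the data, gave 43 genes with H4K12la, 25 with HDAC1 and 7 with both, and ratios of 2.51 and 1.47. Without replicate 2, HDAC1 lay at 18 RAB and 8 SEC genes, and without replicate 1 at 13 and 5, against 9 and 4 when both replicates were required. Without replicate 1, H4K12la lay at 16 VPS and 8 SNX genes, against 9 and 2. No paired analysis was possible because no result here comes from a test between groups of libraries. Depth is unknown, so weak peaks missed in the shorter lists cannot be told from absent ones.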

Other observations

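Peaks inside trafficking genes, more than 1 kb from either end, gave 1 region shared by all targets. RAB40B, which encodes a Rab GTPase with a SOCS box, had no gene-end peak in any library, yet an internal region was called in all 6, at its widest chr17:82671256-82672396 in HDAC1 replicate 1 (hg38). The ENO1 peaks there had folds of 6.76 and 6.32 in replicates 1 and 2, the H4K12la peaks 6.32 and 5.65, and the HDAC1 peaks 7.34 and 7.43. It was the only trafficking gene with an ENO1 peak inside the gene, in either replicate. With both replicates required, that is 0.450% of trafficking genes, against 0.393% of all genes. The median distance from a trafficking gene to the nearest ENO1 peak was 2522 kb in replicate 1 and 3997 kb in replicate 2, and 4 and 3 genes lay within 50 kb. No such distances over all genes are set beside these values.

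H4K12la peaks lay inside 9 trafficking genes in both replicates, or 4.05%, against 4.61% of all genes. HDAC1 peaks lay inside 9 as well, or 4.05%, against 2.76%, and RAB40B, SNX29 and TRAPPC9 were on both lists. In TRAPPC9 the H4K12la peaks of the 2 replicates did not overlap, while in the other 8 genes they shared bases. TRAPPC9, without a gene-end peak of any target, was among these, as was SNX29, which had a gene-end H4K12la peak in replicate 1 alone. STX3 had HDAC1 peaks of 5.07-fold and 4.13-fold with summits 663 and 254 bases downstream of its annotated start in the promoter table, but more than 1 kb from either end of its gene record, so a start placed by transcript and one placed by gene record give different answers there.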
